A study of Mus musculus with 29 samples.

Results

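Among 17 single mouse embryos made by nuclear transfer, 5 carried high levels of the 2-cell transcripts Sp110 and AF067063 and are described here against the other 12. An embryo counted as high when its CPM of Sp110 and AF067063 summed to at least 700, where CPM is the count divided by the library's total without spike-in RNAs, times 1000000. The high embryos were control 3, HU 3, HU 4, HU 5 and HU 7, which is 5 of the 29 libraries of the series; the remaining 12 libraries are single cumulus cells and enter no comparison. To make them, an oocyte's own nucleus was removed and that of a cumulus cell, one of the somatic cells around an ovulated oocyte, was injected in its place. All embryos shared the BDF1 strain, a 6 h activation in 10 mM strontium and collection at the 2-cell stage 28 h after activation. The 9 control embryos were cultured without and the 8 HU embryos with 10 uM hydroxyurea, an inhibitor of ribonucleotide reductase, for 24 h. The low group therefore held 8 control and 4 HU embryos, and the high group 1 control and 4 HU embryos. Each library is 1 whole embryo, so fewer cells with a transcript and less RNA per cell cannot be told apart. The labels do not name the day, the donor animal or the oocyte batch of an embryo, so the p-values speak of the spread among these embryos alone.

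After fertilization the mouse embryo first lives on RNA stored by the oocyte, which is degraded while the embryo's own genome starts to be transcribed. At the 2-cell stage a large wave of transcription switches on 2 kinds of genes. One kind is nearly specific to that stage, such as the Zscan4, Tcstv, Tdpoz and Zfp352 genes, many of which lie in young multicopy clusters or next to retroviral repeats. The other kind is housekeeping, above all genes for ribosomes, nucleoli, splicing and the proteasome. In nuclear transfer embryos the donor nucleus has to be reprogrammed to make this switch, and the extent varies from embryo to embryo.

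Both rule genes are taken here as transcripts of the 2-cell stage, and whether they are specific to it was not tested. Sp110 encodes a nuclear body protein and lies on GRCm38 chromosome 1 at 85576899 to 85598817, minus strand, with up to 12 exons per annotated transcript. It overlaps G530012D18Rik on the opposite strand, and because the library method does not mark strand, their reads cannot be told apart. AF067063 is a 2-exon gene on chromosome 13 at 119827961 to 119830216, minus strand, beside the Tcstv genes.

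The 250 bases before the start site are printed for 5 genes that moved together, to show what sequence they do and do not share. They come from RefSeq on GRCm38.p6, whose table held promoters for 13 of the 30 genes of the 2-cell list that were higher in the high embryos, and for Sp110. Capitals mark the 6-base motif TAATCC or its reverse complement GGATTA. The windows are chr4:90218570-90218819 (plus strand) for Zfp352, chr13:120262845-120263094 (plus) for AF067061, chr3:93676284-93676533 (minus) for Tdpoz1, chr1:85603892-85604141 (minus) for the more upstream of the Sp110 starts, and chr2:87492419-87492668 (minus) for Pramel7.
Zfp352: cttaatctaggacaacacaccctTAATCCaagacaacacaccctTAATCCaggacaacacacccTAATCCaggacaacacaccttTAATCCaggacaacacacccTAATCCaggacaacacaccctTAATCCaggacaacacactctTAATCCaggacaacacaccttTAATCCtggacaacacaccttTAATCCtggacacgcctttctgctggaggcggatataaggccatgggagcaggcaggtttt
AF067061: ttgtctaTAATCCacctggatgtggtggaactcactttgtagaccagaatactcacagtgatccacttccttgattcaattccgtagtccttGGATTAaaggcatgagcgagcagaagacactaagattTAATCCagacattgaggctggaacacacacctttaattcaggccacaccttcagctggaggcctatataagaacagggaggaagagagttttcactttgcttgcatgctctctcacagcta
Tdpoz1: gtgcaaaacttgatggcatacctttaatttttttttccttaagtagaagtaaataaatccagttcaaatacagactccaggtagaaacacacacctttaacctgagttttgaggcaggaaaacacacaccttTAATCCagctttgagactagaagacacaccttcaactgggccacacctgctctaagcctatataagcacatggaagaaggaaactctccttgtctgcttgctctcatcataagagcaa
Sp110, upstream start: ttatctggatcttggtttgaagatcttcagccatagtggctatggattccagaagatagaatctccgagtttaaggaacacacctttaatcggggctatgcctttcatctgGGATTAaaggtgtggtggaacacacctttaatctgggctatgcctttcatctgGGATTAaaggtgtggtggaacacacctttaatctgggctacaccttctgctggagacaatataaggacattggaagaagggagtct
Pramel7: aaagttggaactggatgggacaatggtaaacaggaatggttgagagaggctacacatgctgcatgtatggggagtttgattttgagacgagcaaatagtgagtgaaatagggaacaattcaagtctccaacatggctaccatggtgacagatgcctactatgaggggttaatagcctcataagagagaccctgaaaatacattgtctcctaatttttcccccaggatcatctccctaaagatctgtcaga
Zfp352, a zinc finger gene, held 9 matches, one every 20 to 21 bases from 227 to 61 bases before its start. AF067061 held 3 matches, Tdpoz1 held 1, this Sp110 window held 2 and Pramel7 held 0. The other Sp110 window, chr1:85598811-85599060 (minus), held 1 match and is not printed. The printed Sp110 window lies outside the Sp110 interval given above. It falls within Sp140, on chromosome 1 at 85600378 to 85645037, plus strand. A match was found in the window of 3 of the 13 genes (23.1%), against 7.89% of all higher genes, 2.83% of lower genes, 6.38% of tested genes and 7.21% of all promoters in the table. TAATCC was chosen for display after its shares were seen, out of 17 motifs searched on both strands. The others were the GC box GGGCGG, the CAAT box CCAAT, the TATA box TATAAA, the E-box CACGTG, the ETS motif CCGGAAG, the cyclic AMP element TGACGTCA, the AP-1 site TGAGTCA, the YY1 motif GCCATNTTG, the nuclear receptor letters AGGTCA with their longer form TCAAGGTCA, and the DUX motif with its core GATTNAATC. The ZBTB33 motif, a longer OBOX-type motif that can share bases with TAATCC, and the strings CTTTCC and also TTTGAAGAA completed the set. The E-box stood in 12.5% of higher and 10.8% of lower genes against 9.83% of tested genes, and the ETS motif in 19.2% and 15.1% against 14.8%. A match is a description of the letters and shows no binding.

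The sum of Sp110 and AF067063 was 901 CPM in HU 3, 1315 in HU 5, 1670 in HU 4, 1800 in control 3 and 2328 in HU 7. In the 12 low embryos it ranged from 111 CPM (HU 8) to 527 CPM (control 5), with the second highest at 351 CPM in control 9. HU 3 was thus the embryo just inside the threshold and control 5 the one just outside. These values chose the groups and carry no test. The 2 genes did not keep one ratio: HU 7 had the most Sp110 (1938 CPM) but only 390 CPM of AF067063, whereas HU 4 had 968 and 702 CPM. Per length, mean Sp110 was 596 ± 243 FPKM in high (SD, n = 5) and 86.0 ± 53.3 FPKM in low embryos (SD, n = 12), and AF067063 was 483 ± 222 and 67.9 ± 33.1 FPKM. The other marker of the class, Zfp352, was not used by the rule. It was 127.7 CPM in control 3, 182.4 in HU 3, 266.4 in HU 4, 154.9 in HU 5 and 88.4 in HU 7, against 7.29 to 119 CPM (median 26.6) in the low embryos. The groups overlapped only through HU 7 and control 5, the low embryo with the highest Sp110. Zfp352 rose by a log2 fold change of 2.74 ± 0.48 (SE; edgeR quasi-likelihood test with treatment as covariate, adjusted p = 0.00088).

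**Figure D1:**
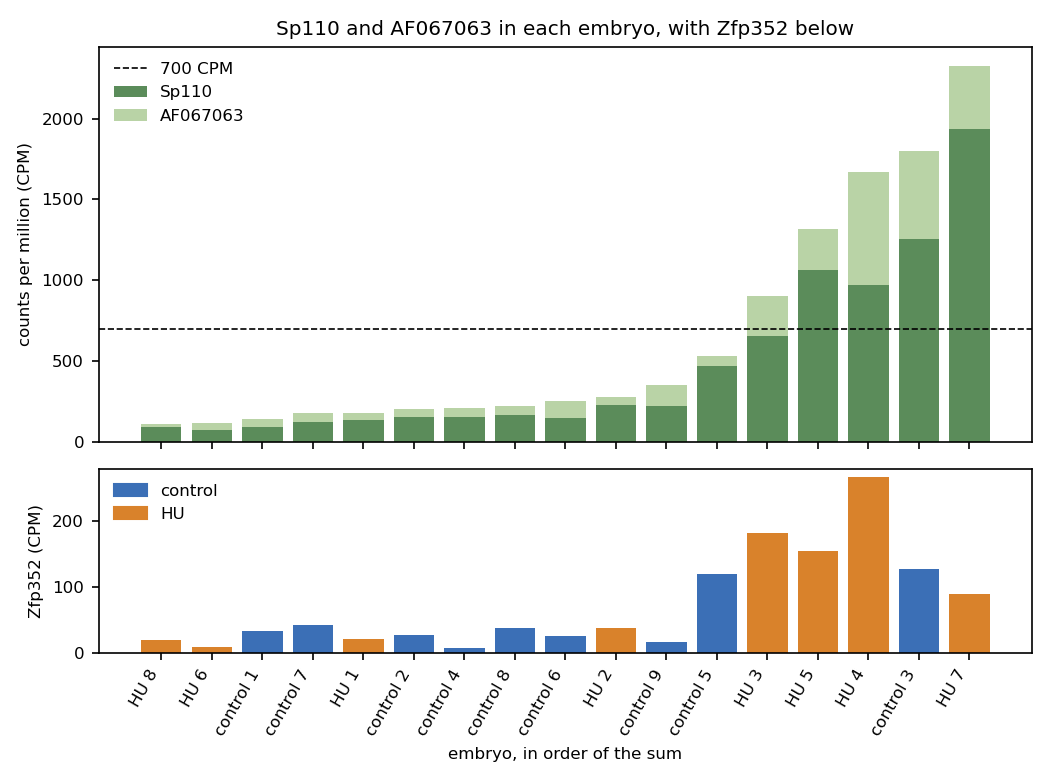
Upper panel: Sp110 (dark) and AF067063 (light) in CPM, stacked, for each of the 17 embryos in order of their sum, with the 700 CPM threshold dashed. Lower panel: Zfp352 in CPM, bars coloured by treatment; the 5 embryos on the right are the high ones, and control 5, at 119 CPM of Zfp352, is the highest of the low ones.

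Of the HU embryos 4 of 8 (50%) were high, and of the controls 1 of 9 (11.1%). This difference did not pass a 2-sided Fisher's exact test (p = 0.131). With a threshold of 500 CPM the shares were 50% and 22.2% (exact p = 0.335), and with 1000 CPM 37.5% and 11.1% (exact p = 0.294).

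Libraries held 1801261 (control 3) to 3757492 gene counts. Of 12 library measures compared by exact permutation of the split within treatment, none passed after adjustment. The largest differences were in detected genes and in summed markers of cumulus cells. High embryos had 14028 ± 832 genes with a count (SD, n = 5) and low embryos 14765 ± 414 (SD, n = 12), a difference within treatment of -979 genes (exact permutation p = 0.0111, adjusted p = 0.0857). Thinned to 1801261 counts each, it was -826 genes (exact permutation p = 0.0365, adjusted p = 0.146). The unthinned difference passed without HU 3 (adjusted p = 0.019, exact permutation) and with the threshold at 1000 CPM (adjusted p = 0.0119, exact permutation). HU 4 had the fewest genes, 12887, while HU 3 had 15192 and lay among the low embryos. Summed CPM of the 50 cumulus and granulosa markers was 3870 ± 1381 in high and 1990 ± 587 in low embryos (exact permutation p = 0.0143, adjusted p = 0.0857), and this difference too passed without HU 3 (adjusted p = 0.019, exact permutation). That difference lay in Mt1, Mt2 and Ctsl, genes for metallothioneins and a lysosomal protease, which summed to 1570 to 4860 CPM in high and 1020 to 2720 CPM in low embryos. The other markers summed to 351 ± 77.7 and 346 ± 64.4 CPM. Of the 50 markers, 10 had no count in any high embryo, among them Prss35, Inha, Inhba, Vcan and Grem1. Of the 8 markers at 500 CPM or more in the pooled cumulus cells, Cyp11a1 and Hsd3b1, enzymes of steroid synthesis, had at most 2.26 and 2.88 CPM in high embryos, against 1810 and 1640 CPM in cumulus cells. Timp1 reached 7.11 CPM and Cited4 12.6 CPM. Serpine2, Gja1 and Sparc were present at up to 68.8, 39.6 and 70.1 CPM in high and up to 42.2, 28.5 and 76.4 CPM in low embryos, against 834, 539 and 648 CPM in cumulus cells, and the last of the 8 was Ctsl. The part of cumulus RNA in the results was not tested. Immune markers summed to 32.3 to 39.9 CPM in high and 6.95 to 50.5 CPM in low embryos, and endothelial markers to 39.7 to 100 CPM and 46.8 to 104 CPM. Theca markers reached at most 15.9 CPM and erythroid markers 8.46 CPM in any embryo.

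**Figure D2:**
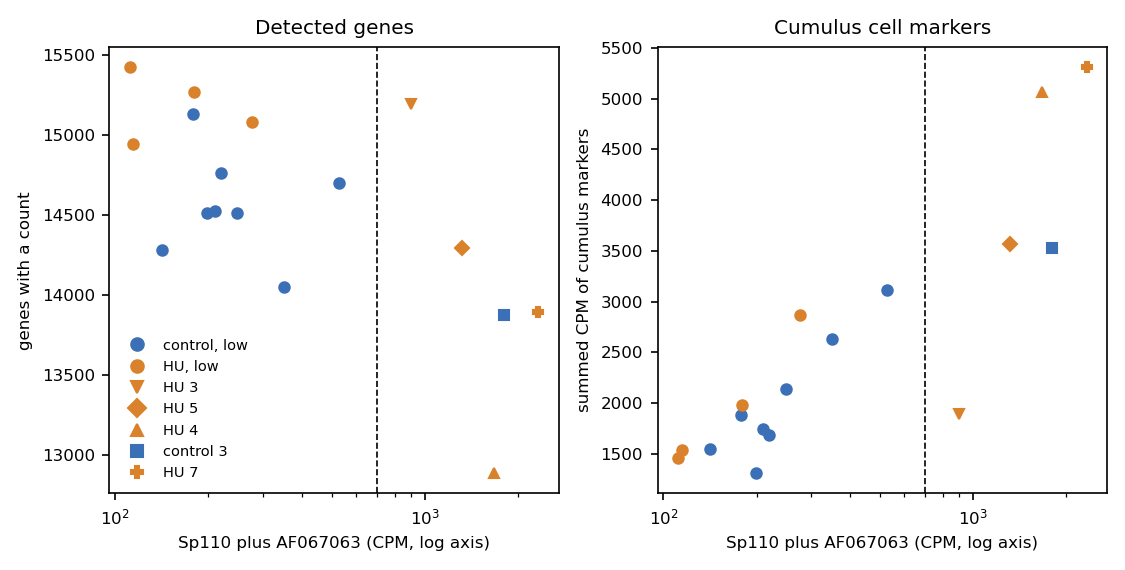
Genes with a count (left) and summed CPM of 50 cumulus cell markers (right) in each embryo, against the sum of Sp110 and AF067063 on a log axis, with the 700 CPM threshold dashed. HU 4 had 12887 genes and HU 3 had 15192, inside the range of the low embryos; most high embryos lie higher in the right panel through Mt1, Mt2 and Ctsl.

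Across 13588 genes other than the rule genes, 838 were higher in high embryos (6.17%) and 277 were lower (2.04%), which makes 1115 genes or 8.21% (edgeR quasi-likelihood test with treatment as covariate, adjusted p under 0.05). The p asks whether a gene went along with Sp110 and AF067063 over these same embryos, and the groups were chosen from those 2 transcripts. The median change was 1.39 on the log2 scale among higher genes and -1.81 among lower genes, and -0.09 over all genes tested. Every high embryo lay above every low embryo for 192 genes (1.41%) and below for 41 genes (0.302%). The counts depended on control 3, the only high control: without it 415 genes were higher and 87 lower. Within the HU embryos alone, 4 high against 4 low, 251 were higher and 28 lower. With the number of detected genes as a further covariate, added after the data were seen, 83 were higher and 9 lower, and with ERCC spike-in totals as library size 320 and 77. A total of 323 higher and 46 lower genes passed in each of the 17 fits that left out 1 embryo. Among the named genes, Btg4, Cdc20, Cdc25b, Dnmt3l, Brd2, Nhp2, Obox3, Pdia3, Ppp1r15a, Taf7 and Xist overlap a protein-coding gene on the opposite strand, and BC147527, Bcl2, Cdkn1a, Ctsl, Dnmt3b, Exosc10, Fn1, Herpud1, Kdm4a, Lclat1, Orc1, Pou5f1, Sfmbt2, Sp140, St14 and Usp29 an antisense RNA, pseudogene or other transcript there. Reads of such partners cannot be told apart.

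The 2-cell list, 63 genes of which 59 were in the table and 46 passed the filter on low counts, had 30 higher members, 0 lower and 16 that did not pass. The rule genes are taken as transcripts of the same stage, so the direction of this list is no independent support. Its median log2 fold change was 2.52, beside -0.09 over all genes tested. For 17 members all 5 high embryos lay above all 12 low ones, among them Tdpoz1 to Tdpoz4, Trim43a, Trim43b, Trim43c and Pramef25. Over all genes tested 1.41% separated in this way. Some members, among them B020004J07Rik, AF067061, Pramef25 and Zscan4a, passed the filter only through the high group. For these a higher level was in part fixed by the filter, so their share in the counts and the median is no support. Some 26 of the 30 higher members (86.7%) had no count in any of the 12 cumulus cells, against 16% of all genes tested. Without control 3 the list had 15 higher members, and with detected genes as covariate 14. Most of its genes have near-identical copies, and how reads shared between copies were counted is not given in the sources used here, so the level of a single copy is uncertain.

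B020004J07Rik, on chromosome 4 at 101834969 to 101844023, was nearly absent from low embryos. It was 67.7 CPM in control 3, 45.4 in HU 3, 74.2 in HU 4, 11.4 in HU 5 and 27.6 in HU 7, and had no count in 10 of the 12 low embryos, where its highest value was 4.09 CPM. Pramef25, a leucine-rich repeat gene of the PRAME family, was 40.5, 36.9, 25.8, 17.9 and 69.1 CPM in the same order and at most 4.31 CPM in low embryos. The groups did not overlap for either gene. AF067061, a relative of AF067063, was 81.1, 26.4, 55.5, 1.22 and 7.77 CPM, with 0 to 1.66 CPM in low embryos, so that HU 5 fell inside the low range. AF067061 and Pramef25 each had no count in 8 low embryos. These genes entered the test through their counts in the high group, so no fitted fold or p is given for them. Tcstv3, known for its link to telomere length in 2-cell-like cells, was 344.8, 80.2, 188.7, 10.2 and 32.5 CPM against 8.52 to 30.0 CPM (log2 fold change 3.23 ± 0.40, edgeR adjusted p = 3.44e-05). Here too HU 5 lay inside the low range. Tdpoz1, a gene with TRAF and POZ domains, was 239, 50.8, 60.3, 66.7 and 85.8 CPM, all above the low maximum of 21.9 CPM in HU 2. Zscan4d, a regulator of telomeres and a hallmark of the 2-cell stage, was 59.4 CPM in control 3, 6.09 in HU 3, 0.323 in HU 4 and 0 in HU 5 and HU 7. Its highest low value was 11.7 CPM in control 4. It did not pass, and as it entered the test through the high group its p is not given. Zscan4c had too few counts for the test: 12.8 CPM in control 3 and at most 1.63 CPM in the other 4. Zscan4d and Zscan4c were thus highest in control 3, and HU 4 and HU 7 had under 1 CPM of both. Zscan4a was among the higher members of the list. It averaged 15.5 ± 19.8 CPM in high embryos (SD, n = 5) and 0.546 ± 1.02 CPM in low embryos (SD, n = 12). For Zscan4a 3 high embryos lay above all low ones, and 9 low embryos had no count. It too entered the test through the high group, so no fitted fold or p is given.

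Neighbouring genes that were all higher formed 15 runs of at least 3, and how many runs the share of higher genes alone would give was not tested. The longest 3 and the one beside Sp110 are named. On chromosome 13, 7 tested neighbours with starts from 119765187 to 120316878 were all higher: Zfp131, Tcstv1, B020031M17Rik, Gm20767, AF067061, BC147527 and Tcstv3, in the region that also holds AF067063. On chromosome 3, 6 neighbours from 93651542 to 94174412 were higher: Tdpoz2, Tdpoz1, Tdpoz4, Tdpoz3, Gm9125 and Gm10696. On chromosome 4, Pramef25, Pramef17, Pramel4 and Gm13102 formed a run of 4 between 143948580 and 144106474. On chromosome 1, the run C130026I21Rik, A530032D15Rik and Sp140 stood around Sp110. The runs were tabulated among the 13094 tested genes with 1 GENCODE position, and copies in such clusters may share reads. Sp140, a nuclear body gene and chromatin reader, was 117, 67.0, 44.8, 67.9 and 140 CPM in control 3, HU 3, HU 4, HU 5 and HU 7, against 12.7 to 56.0 CPM in low embryos (edgeR adjusted p = 0.00599). HU 4 fell inside that range. Of the 6 tested members of the list of SP nuclear body genes and neighbours, 4 were higher (66.7%, beside 6.17% of all genes tested). That list also holds AF067061 of chromosome 13, which entered the test through the high group. Sp100 of the SP family averaged 2.61 CPM in high and 3.70 CPM in low embryos and did not pass (edgeR adjusted p = 0.743). In the fit without control 3, 0 of these members remained past the threshold as higher.

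**Figure D3:**
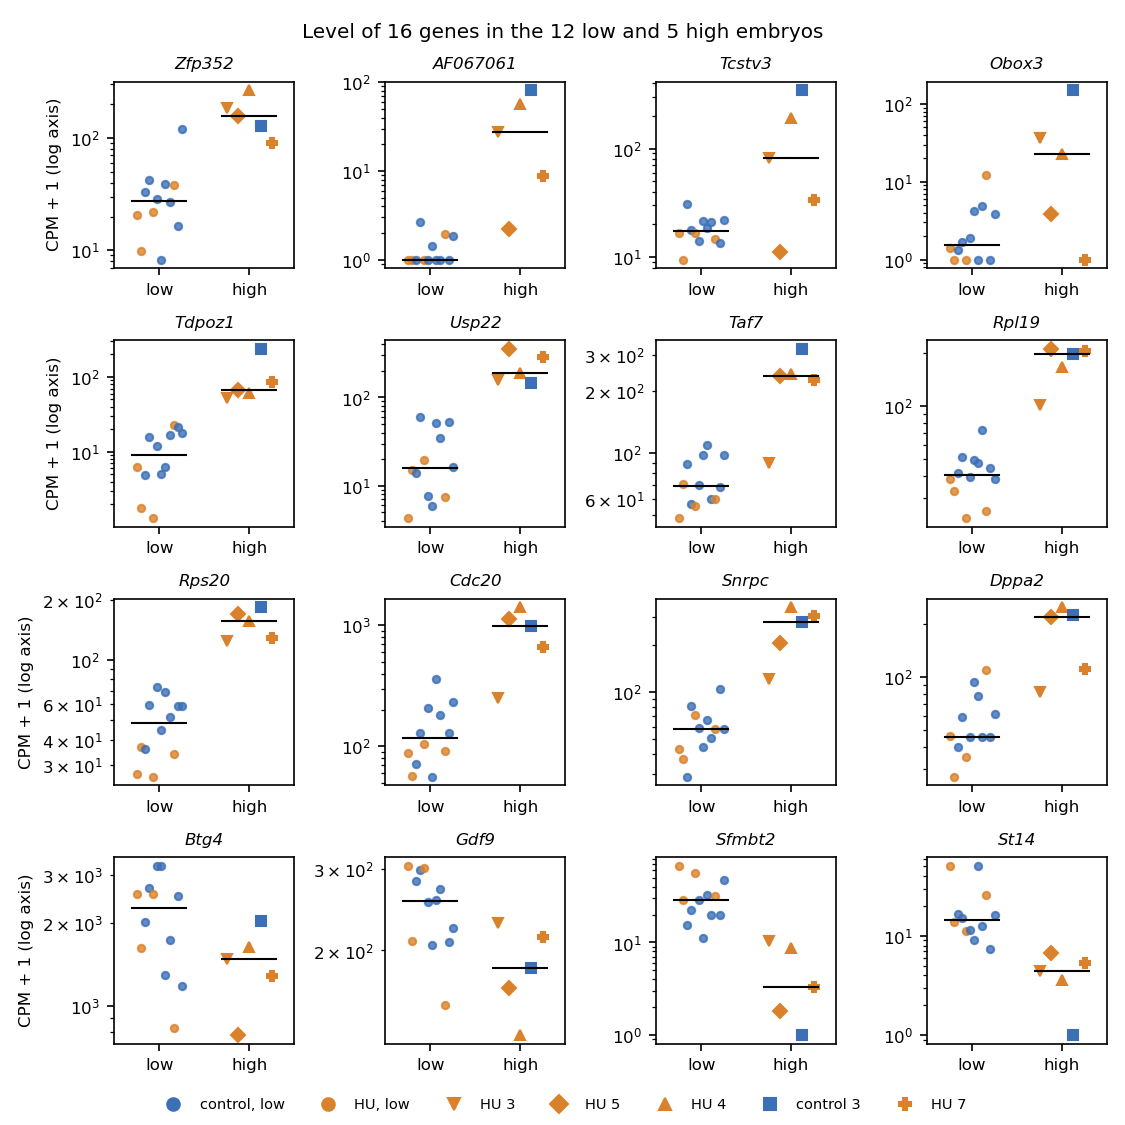
CPM + 1 on a log axis for 16 genes in the 12 low embryos (circles) and the 5 high embryos (one symbol each), blue for control and orange for HU, with a line at each group's median. HU 5 and HU 7 sit low for Tcstv3 and Obox3 and high for Usp22; HU 3 is the lowest high embryo for Taf7, Rpl19 and Cdc20; Btg4 and Gdf9 overlap between the groups.

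Genes with large changes outside the 2-cell list varied in other ways among the 5. Usp22 encodes a deubiquitinase of the SAGA coactivator complex and lies on chromosome 11 at 61151785 to 61175055. It was 144 CPM in control 3, 155 in HU 3, 189 in HU 4, 358 in HU 5 and 285 in HU 7, against 3.28 to 59.8 CPM in low embryos (log2 fold change 4.02 ± 0.61, edgeR adjusted p = 0.000324). All 5 lay above all 12. Lclat1, a cardiolipin acyltransferase gene, was 94.8 to 354 CPM against 5.69 to 102 CPM (3.75 ± 0.60, edgeR adjusted p = 0.000521). Obox3, an oocyte-type homeobox gene, was 151 CPM in control 3, 35.2 in HU 3, 21.9 in HU 4, 2.85 in HU 5 and 0 in HU 7, against at most 11.1 CPM in low embryos. It entered the test through its counts in the high group, so no fitted fold or p is given for it. It passed as reported but not without control 3. BC147527 likewise did not pass without control 3 (adjusted p = 0.129), the embryo in which it reached 362 CPM. Cst7, a cystatin gene, was instead lowest of the 5 in control 3 (7.77 CPM) and HU 7 (12.7 CPM), with 42.3 to 85.4 CPM in HU 3, HU 4 and HU 5. Low embryos had at most 6.46 CPM of it.

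The regulators of genome activation, a list of transcription and chromatin factors, had 8 higher and 1 lower of 35 tested members (22.9% and 2.86%, beside 6.17% and 2.04% of all genes). The higher members numbered 6 without control 3 and 1 with detected genes as covariate. Taf7, a subunit of the general factor TFIID, was 321 CPM in control 3, 89.0 in HU 3, 243 in HU 4, 235 in HU 5 and 225 in HU 7, against 47.5 to 108 CPM in low embryos (log2 fold change 1.91 ± 0.24, edgeR adjusted p = 3.18e-05). HU 3 alone of the 5 lay within the low range. Dppa2, which helps switch on 2-cell genes, was 81.2 to 250 CPM against 26.1 to 109 CPM (1.81 ± 0.30, edgeR adjusted p = 0.000624), and its partner Dppa4 was higher by 1.52 ± 0.32. The 1 lower member was Sfmbt2, an imprinted Polycomb-related gene. Nr5a2, an orphan receptor proposed to act in genome activation, was 11.5 to 81.3 CPM and 6.26 to 39.6 CPM, and did not pass (edgeR adjusted p = 0.746).

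The housekeeping genes of genome activation had 16 higher and 0 lower of 35 (45.7%; median log2 fold change 0.88). Ddx5, an RNA helicase gene, was 626 CPM in control 3, 338 in HU 3, 774 in HU 4, 743 in HU 5 and 625 in HU 7 against 113 to 441 CPM in low embryos (1.85 ± 0.27, edgeR adjusted p = 0.000198). Only HU 3 lay under the highest low embryo, control 5. Without control 3 the list had 11 higher members, and with detected genes as covariate 0.

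Genes for making ribosomes formed the largest group outside the 2-cell class. Of 75 tested cytosolic ribosomal protein genes 39 were higher (52.0%) and 0 lower; all 75 had a positive log2 fold change, with a median of 0.94. For 8 of the 75 the 5 high embryos lay above all low ones, beside 1.41% of all genes tested. Rpl19 was 194 CPM in control 3, 99.8 in HU 3, 165 in HU 4, 210 in HU 5 and 203 in HU 7, against 22.1 to 71.9 CPM in low embryos (log2 fold change 2.46 ± 0.25, edgeR adjusted p = 5.65e-06). Rps20 was 183, 124, 155, 168 and 127 CPM against 25.1 to 72.5 CPM (2.15 ± 0.22, edgeR adjusted p = 5.65e-06). Neither gene overlapped between the groups. Per length, mean Rps20 was 301 ± 51.0 FPKM in high and 93.6 ± 32.2 FPKM in low embryos, and Rpl19 217 ± 55.9 and 51.1 ± 16.2 FPKM. Ribosome biogenesis and nucleolar genes had 25 higher and 0 lower of 74 (33.8%; median 0.78). Imp3, of the small-subunit processome, rose by 1.65 ± 0.27 (edgeR adjusted p = 0.00058), and Nhp2, a box H/ACA ribonucleoprotein, by 1.75 ± 0.29 (edgeR adjusted p = 0.000569). Npm1, the nucleolar chaperone nucleophosmin, was 742, 522, 1269, 1199 and 942 CPM against 362 to 583 CPM, with HU 3 inside the low range. Translation factors had 14 higher and 0 lower of 49 (28.6%; median 0.51), among them Eef2 (1.18 ± 0.21) and Eif4a3 (1.29 ± 0.24). These lists moved most with the number of detected genes: with it as a covariate 2 ribosomal protein genes, 1 nucleolar gene and 0 translation factors passed, while without control 3 it was 30, 15 and 7.

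**Figure D4:**
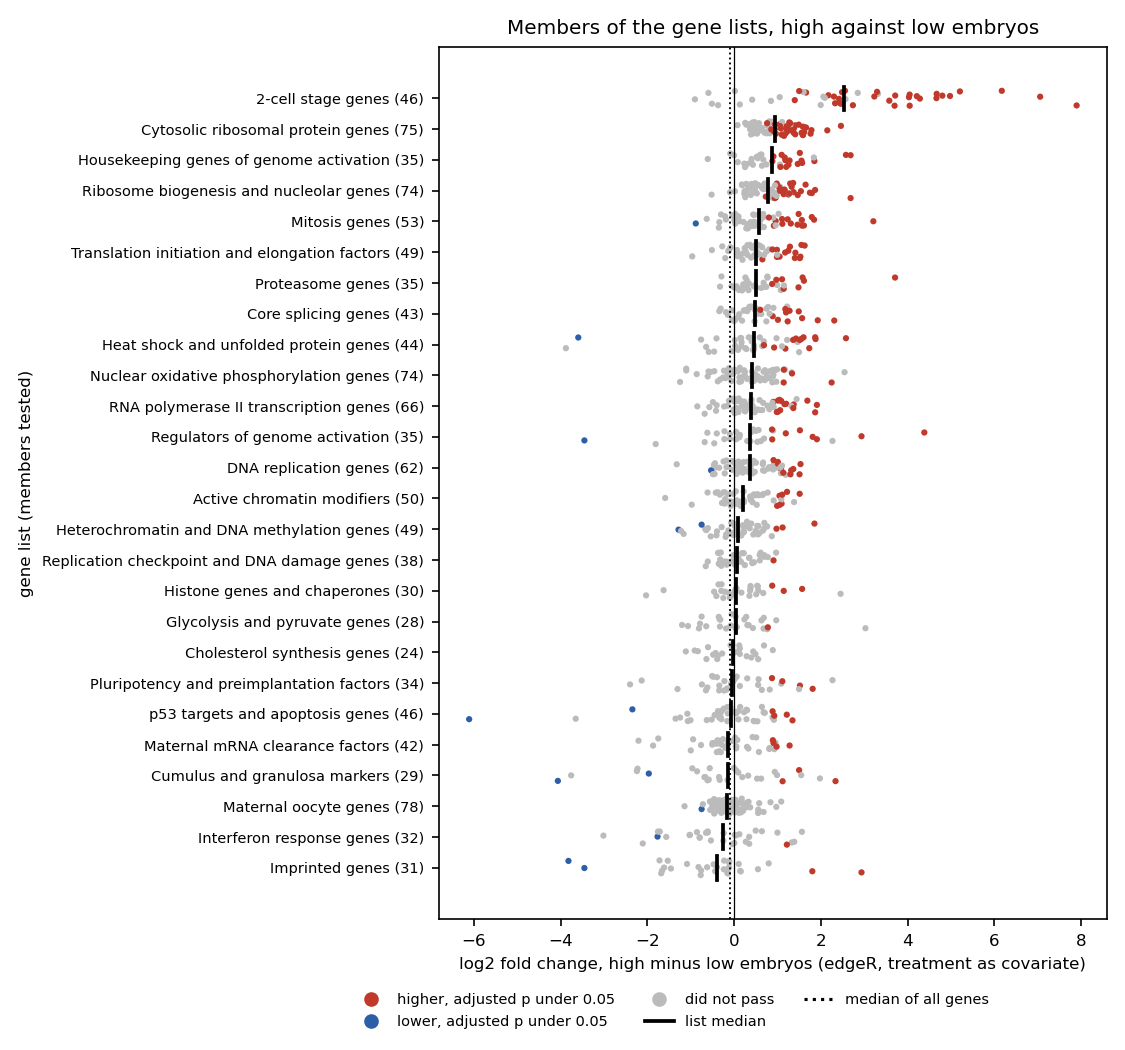
Log2 fold change of each tested member of 26 gene lists, high minus low embryos, with red for higher, blue for lower and grey for not passing at an adjusted p of 0.05, a bar at each list's median and a dotted line at the median of all genes (-0.09). The 2-cell list has a median of 2.52, with some members that passed the filter only through the high group. Ribosomal protein genes, at 0.94, all lie above 0. Maternal oocyte genes centre on -0.17.

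Other housekeeping lists had smaller median shifts. Splicing genes had 11 higher and 0 lower of 43 (25.6%), with Snrpc, of the U1 particle, at 120.8 to 348 CPM against 27.7 to 103 CPM (log2 fold change 2.31 ± 0.30, edgeR adjusted p = 6.93e-05, no overlap). Proteasome genes had 8 and 0 of 35 (22.9%; median 0.51). Their largest fold was in the catalytic subunit Psmb5 (3.71 ± 0.69), at 19.6 to 35.5 CPM against 0 to 10.4 CPM. RNA polymerase II genes had 14 and 0 of 66 (21.2%), with Gtf2f1 of TFIIF higher by 1.37 ± 0.18. Heat shock and unfolded protein genes had 12 higher and 1 lower of 44 (27.3% and 2.27%). Ppp1r15a, a stress-induced phosphatase subunit, was 227 to 424 CPM against 47.4 to 209 CPM (1.88 ± 0.28, edgeR adjusted p = 0.000244). The lower member was Herpud1, a gene of protein disposal at the endoplasmic reticulum, at 0.576 to 11.4 CPM against 0.599 to 158 CPM. It entered the test through its counts in the low group, so no fitted fold or p is given. Hspa8, a constitutive chaperone gene, was 133 to 483 CPM against 44.7 to 159 CPM, with only HU 4 and HU 5 above all low embryos. Nuclear genes of oxidative phosphorylation had 4 and 0 of 74, which at 5.41% is near the 6.17% of all genes tested; Atp5g1, of the ATP synthase, was higher by 1.33 ± 0.19. The 12 tested mitochondrially encoded genes had 0 and 0. Without control 3 the higher members numbered 6 for splicing, 7 for the proteasome, 6 for RNA polymerase II, 9 for heat shock and 1 for oxidative phosphorylation. With detected genes as covariate they numbered 1, 0, 2, 2 and 1.

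Mitosis genes had 15 higher and 1 lower of 53 (28.3%; median 0.56). Cdc20, the activator of the anaphase-promoting complex, was 997 CPM in control 3, 249 in HU 3, 1417 in HU 4, 1127 in HU 5 and 668 in HU 7, against 55.1 to 359 CPM in low embryos (log2 fold change 3.21 ± 0.39, edgeR adjusted p = 2.29e-05). HU 3 lay within the low range and the other 4 above it. Cdk1, the mitotic kinase, was 302 to 782 CPM against 101 to 328 CPM (1.84 ± 0.26, edgeR adjusted p = 0.000143). The lower member was Cdc25b, a phosphatase that activates Cdk1, at 27.1 to 88.8 CPM against 73.0 to 177 CPM (-0.89 ± 0.26, edgeR adjusted p = 0.0329). DNA replication genes had 11 higher and 1 lower of 62 (17.7% and 1.61%). Without control 3 the higher members numbered 10 for mitosis and 6 for replication, and with detected genes as covariate 3 and 0. Orc1, of the origin recognition complex, was higher by 1.32 ± 0.24, and Dbf4, the regulatory partner of the Cdc7 kinase, lower by -0.53 ± 0.16. Of the 38 tested genes of the replication checkpoint and DNA damage response, which answer stalled DNA synthesis, 1 was higher and 0 lower. The share of 2.63% higher lay under the 6.17% of all genes tested. The higher gene was Topbp1 (0.91 ± 0.28, edgeR adjusted p = 0.0479), which passed in 5 of the 17 fits that left out an embryo. Without control 3 this list had 0 higher members. Cdkn1a, the p53 target p21, was 77.7 to 218 CPM and 53.9 to 220 CPM, and did not pass (edgeR adjusted p = 0.742).

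Stored oocyte transcripts did not separate the groups. Of 78 tested maternal genes 0 were higher and 1 was lower (1.28%), with a median of -0.17. The 1 lower gene was Dnmt3l, a cofactor of DNA methylation (-0.75 ± 0.23, edgeR adjusted p = 0.0405; 0.133 without control 3). Btg4, an adaptor that directs decay of maternal mRNA, was 2031 CPM in control 3, 1485 in HU 3, 1635 in HU 4, 780 in HU 5 and 1282 in HU 7, against 829.0 to 3240 CPM in low embryos. Gdf9, an oocyte growth factor, was 130 to 228 CPM against 151 to 304 CPM. Both ranges overlapped, and neither gene passed (edgeR adjusted p = 0.498 and 0.324). Both oocyte transcripts were present in all 17 embryos. Pou5f1 (Oct4), which is also stored in the oocyte, was 100 to 217 CPM against 157 to 335 CPM and did not pass (edgeR adjusted p = 0.0921). Factors of maternal mRNA clearance had 4 higher and 0 lower of 42 (9.52%, beside 6.17% of all genes; 2 without control 3 and 0 with detected genes as covariate), including the exosome nuclease Exosc10 (1.28 ± 0.27) and the m6A reader Ythdf2 (0.89 ± 0.25; adjusted p = 0.195 without control 3).

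The median level of the lower genes was 26.6 CPM in low and 7.89 CPM in high embryos, beside 19.7 and 19.8 CPM over all genes tested, while higher genes went from a median of 44.4 to 104 CPM. Sfmbt2 was 0 CPM in control 3, 9.48 in HU 3, 7.74 in HU 4, 0.813 in HU 5 and 2.30 in HU 7, against 10.1 to 66.3 CPM in low embryos. St14, a membrane serine protease gene, was 0, 3.38, 2.58, 5.69 and 4.32 CPM against 6.34 to 49.9 CPM (log2 fold change -2.96 ± 0.65, edgeR adjusted p = 0.00628). The groups did not overlap for either gene. Anxa5, for a phospholipid-binding annexin, was 1.94 to 13.8 CPM against 3.47 to 174 CPM (-3.33 ± 0.62, edgeR adjusted p = 0.00158). Cyp27a1, a sterol hydroxylase, was 0.864 to 3.89 CPM against 2.46 to 43.8 CPM. Phlda2, a maternally expressed imprinted gene, was 0 to 4.06 CPM against 1.39 to 92.3 CPM. Sfmbt2, Cyp27a1 and Phlda2 entered the test through their counts in the low group, so no fitted fold or p is given for them. Of 31 imprinted genes tested, 2 were higher (Usp29 and Mcts2) and 2 lower (Phlda2 and Sfmbt2), a share of 6.45% each way beside 6.17% and 2.04% of all genes. Without control 3 these counts were 0 and 1, and Mcts2 passed in 5 of the 17 fits that left out an embryo. Bcl2, an inhibitor of apoptosis, had no count in any high embryo and at most 6.08 CPM in low embryos, where 3 were also at 0. The lower calls were few without control 3 (87) and the named ones, apart from Anxa5, Cyp27a1, Sfmbt2 and St14, failed in at least 1 of the fits that left out an embryo.

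The counts of the other lists stand beside 6.17% higher and 2.04% lower among all genes tested. Heterochromatin and DNA methylation genes had 3 higher and 2 lower of 49 (6.12% and 4.08%; 2 and 0 without control 3), with the H3K9 demethylase gene Kdm4a higher (1.85 ± 0.41) and Dnmt3b lower (-1.28 ± 0.38). Active chromatin modifiers had 7 and 0 of 50 (14%; 2 without control 3 and 0 with detected genes as covariate), led by Brd2 (1.51 ± 0.25). Histone genes and chaperones had 3 and 0 of 30 (10.0%), among them Nasp (1.57 ± 0.27). Pluripotency factors had 4 and 0 of 34 (11.8%), p53 targets and apoptosis genes 4 and 2 of 46 (8.70% and 4.35%; 1 and 0 without control 3), interferon genes 1 and 1 of 32, and glycolysis genes 1 and 0 of 28. Cholesterol synthesis had 0 and 0 of 24, immune markers 0 and 0 of 5, and endothelial markers 0 and 0 of 7. Cumulus markers had 3 higher (Amhr2, Ctsl and Mt1) and 2 lower (Fn1 and Hsd17b1) of 29 tested (10.3% and 6.90%; 2 and 0 without control 3). Xist, the RNA that coats the inactive X chromosome, ranged from 3.87 to 87.0 CPM in high and from 0.434 to 79.4 CPM in low embryos (edgeR adjusted p = 0.795).

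The 5 high embryos were not alike. Of the 838 higher genes, 82.8% lay above every low embryo in control 3, 77.4% in HU 5, 75.2% in HU 4, 65.8% in HU 7 and 47.4% in HU 3. Over all genes tested the shares were 12.6%, 18.1%, 11.7%, 9.46% and 12.4% in the same order. Since these embryos chose the genes, the shares describe how the 5 differ and test nothing. A low embryo lay above all other low ones for 1.19% (HU 6) to 18.7% (control 5) of the same genes. The mean log2(CPM + 1) of the 2-cell list was 5.95 in control 3, 5.12 in HU 3, 5.53 in HU 4, 4.67 in HU 5 and 4.45 in HU 7, with 2.41 to 4.07 in low embryos. That mean covers the tested members, some of which passed the filter only through the high group. For ribosomal protein genes the order differed: 6.64, 6.14, 6.96, 6.77 and 6.73, against 5.42 to 6.13. HU 3, which ranked behind control 3 and HU 4 on the 2-cell list, was thus the lowest of the 5 for ribosomal proteins and barely above the highest low embryo, control 9. HU 5 and HU 7, lowest of the 5 for the 2-cell list, were well above all low embryos for ribosomal proteins. HU 5 also stood apart for maternal genes, at 6.48 against 7.04 to 7.17 in the other 4 and 6.76 to 7.59 in low embryos. Among the low embryos HU 2 had the highest 2-cell mean (4.07) with 276 CPM of the rule genes, and control 5 and control 8 the highest means of several housekeeping lists.

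**Figure D5:**
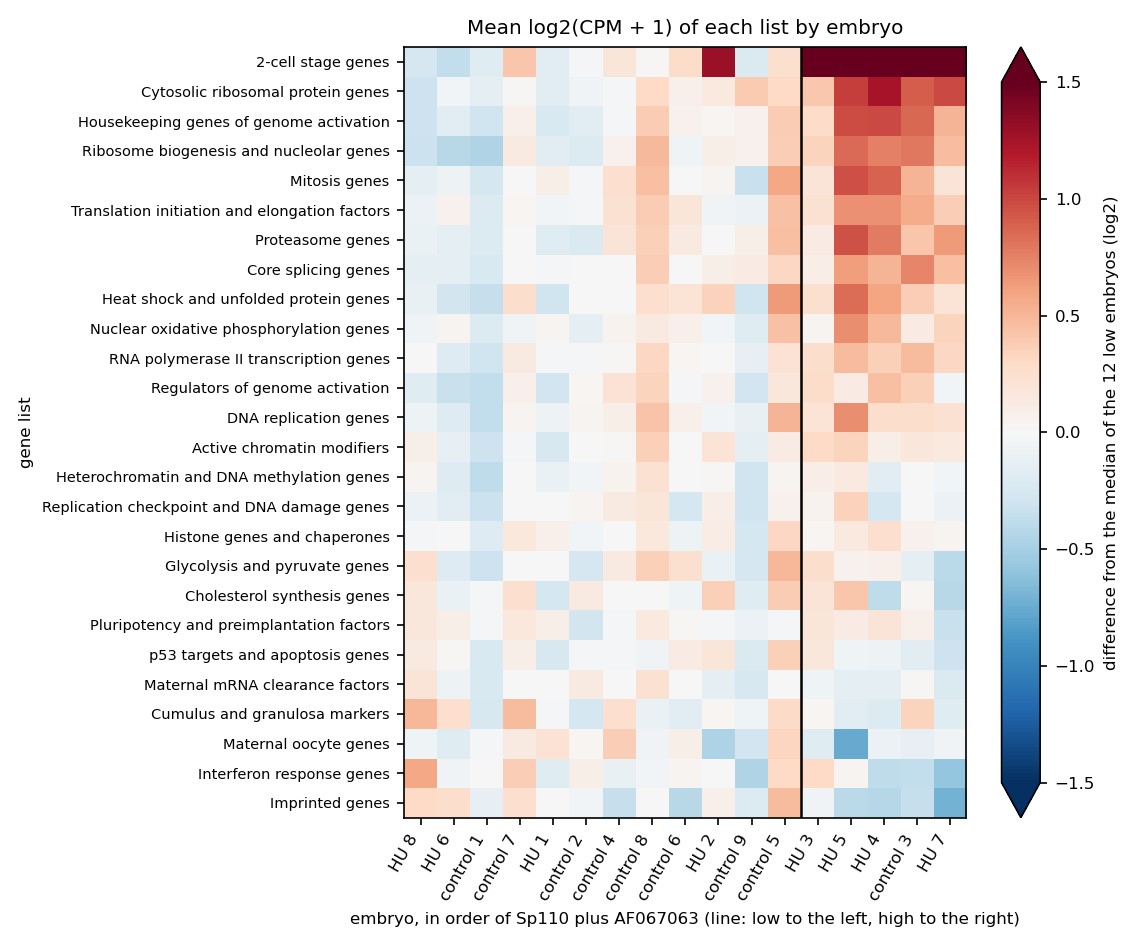
Mean log2(CPM + 1) of each gene list in each embryo, as the difference from the median of the 12 low embryos, with colours limited to 1.5 log2 units either way and embryos in order of Sp110 plus AF067063. The 2-cell row is above every low embryo in the 5 high embryos (right of the line). It includes members that passed the filter only through the high group. Housekeeping rows are weaker in HU 3 than in control 3, HU 4 and HU 5. Control 5 and control 8 are the reddest low embryos in many housekeeping rows.

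Gene structure also differed between the higher genes and the rest. Higher genes had a median length of 2333 bases in the count table's gene models, lower genes 2890 and all tested genes 2886. Genes without an annotated transcript of more than 1 exon made up 4 of the 30 higher 2-cell genes (13.3%), 2.79% of the other higher genes and 1.97% of all genes tested. Of the higher genes outside the 2-cell list 68.4% were at 10 CPM or more in the pooled cumulus cells, against 0 of the 30 2-cell genes, 46.6% of lower genes and 45.8% of all genes tested. These shares are not matched for level. The higher genes outside the 2-cell list had a median of 46.8 CPM in low embryos, beside 19.7 CPM over all genes tested.

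With the split as covariate, HU against control gave 0 of 13590 genes (0%) at an adjusted p under 0.05 in edgeR's quasi-likelihood test, and 589 at an unadjusted p under 0.05. DESeq2 called 7 in the same design. Without control 3 edgeR called 1, Fscn1, an actin-bundling gene (log2 fold change -3.04, adjusted p = 0.0353). With 4 of 8 HU embryos and 1 of 9 controls in the high group, treatment and split overlap in part, and control 3 alone separates them on the high side.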

How the data were processed

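The data are 29 libraries: 17 single 2-cell nuclear transfer embryos and 12 single cumulus cells, made with Smart-seq2 per the labels' protocols. The authors deposited raw counts per gene (24540 rows, of which 92 are ERCC spike-ins) and FPKM values. The build mm10 and the tools STAR 2.7.3a, R 4.0.2 and FastQC are named per the submitters' processing notes. Which counter, annotation or strand setting the authors chose is not given in the sources used here. Their deposited FPKM equalled counts per total and gene length (tolerance 0.001). Totals were 1801261 to 3757492 counts per embryo; Smart-seq2 has no molecular identifiers, so precision from depth covers counting error only.

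CPM was computed without ERCC rows. The 37 rows with Ensembl identifiers were matched to symbols. Embryos with at least 700 CPM of Sp110 plus AF067063 were called high. Genes were tested with edgeR 4.0.16 (quasi-likelihood F test, TMM, filterByExpr, treatment plus split, R 4.3.3) with Benjamini-Hochberg adjustment over all genes. Rule genes stayed in the fit and out of counts. Standard errors come from the F statistic. Library measures used an exact permutation over 630 splits within treatment. On simulated data of 5 against 12 embryos (13590 genes, 50 per fold) the fit recovered 12%, 50%, 62% and 90% of genes changed 2-, 4-, 8- and 16-fold, with 4 false among 111 calls.

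Alternatives were DESeq2 1.42.0, limma 3.58.1 (voom), RLE and ERCC scaling, no filter, no treatment term, a replicate block, HU embryos alone, other thresholds, a continuous split and leaving out each embryo. Detected genes as covariate, and Rn45s and mitochondrial genes left out, were added after seeing the data. Named genes are the 12 with the largest fold change per direction past the threshold at a mean of at least 10 CPM (without predicted, Rik and pseudogenes), the 2 passing members with the smallest p per list and direction (or its 2 most abundant), and a set of 15 listed genes. The members and gene lists were chosen with earlier results of these data known. Mt1, Fscn1, Pramel7, the cumulus markers near 0 and the genes in chromosomal runs were named after their values were seen. Positions are from GENCODE M21 on GRCm38, promoters from RefSeq on GRCm38.p6.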

Additional observations from a re-analysis of the deposited data

Results flagged for a closer look

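In groups of 5, a single embryo far from the other 4 was looked for in 109 values, the named genes on the log2(CPM + 1) scale and the library measures. Chance alone gives such a gap in about 1 of 20 groups, and 9 were found. Of these, 6 were in HU 3, the high embryo nearest the 700 CPM threshold. It was the lowest high embryo for Ctsl (453 CPM against 1130 to 1600 in the other 4), Ddx5 (338 against 625 to 774 CPM), H2afz (164 against 460 to 573 CPM) and Taf7 (89.0 against 225 to 321 CPM). It was the only high embryo with counts of Hsd17b1 (1.69 CPM) and Il15ra (7.45 CPM), both of which were lower in high embryos. HU 5 was the lowest for Fn1, a fibronectin gene (1.63 CPM against 7.20 to 11.1), and had no count of Zmat3 (0 CPM against 3.33 to 6.77), a p53 target. HU 4 had the lowest sum of endothelial markers (39.7 CPM against 85.4 to 100).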

How the results depend on the processing

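Across 30 alternatives, 11 of the 79 named genes that passed did so in every one: Atp5g1, Cdc20, Cdk1, Lclat1, Pdia3, Pramef25, Rpl19, Rps20, Snrpc, Taf7 and Usp22. Pramef25 entered the test through its counts in the high group, so its passing is no support. The same holds for AF067061, B020004J07Rik, Obox3, Cst7 and Usp29, which are among the 79. Sfmbt2, Cyp27a1, Phlda2, Herpud1 and several other lower genes among the 79 entered through their counts in the low group. The counts of higher and lower genes moved as follows; where no construction is given, the cause was not tested. ERCC scaling gave 320 and 77, HU embryos alone (fewer samples) 251 and 28, the 500 CPM threshold 479 and 103, and detected genes as covariate 83 and 9. DESeq2 gave 1006 and 639 (61.2% of calls higher, against 75.2% as reported) and called 7 genes for treatment. Leaving out 1 embryo gave 415 to 928 higher, 87 to 373 lower and 0 to 1 for treatment; besides control 3, the lower count fell to 180, 178, 130, 184, 137 and 152 without HU 1, HU 4, HU 5, HU 6, HU 7 and HU 8. Control and HU embryos of the same replicate number were not closely alike. Over 8 pairs the correlation of deviations was -0.084 to 0.161, and 0 embryos correlated best with their own number. Such correlations between single embryos cannot tell whether a pair shared a batch, which the labels do not name. With the replicate block 116 and 11 genes passed, 91.3% of them higher.

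Direction turned in these values. Under the replicate block, log2 fold changes were -0.144 (Cdkn1a), 0.403 (mt-Rnr2), -0.898 (Nr5a2), 1.70 (Slc4a1) and -3.27 (Zscan4d). With detected genes as covariate they were 0.111 (Cd8a), -0.131 (Insig1), -0.129 (Nr5a2), 0.328 (Pecam1), 0.673 (Slc4a1) and 0.509 (Xist). With limma-voom Cd8a was 0.0887 and Slc4a1 0.0507; with ERCC scaling Nr5a2 was -0.0062; in HU embryos alone mt-Cytb was 0.111; at 1000 CPM Cdkn1a was -0.0971. None of these genes passed as reported. Leaving out 1 embryo gave -0.603 to 0.012 (Cd8a), -0.247 to 0.48 (Nr5a2), -0.331 to 0.0725 (Pecam1), -0.615 to 0.0286 (Slc4a1) and -0.504 to 0.124 (mt-Cytb). List medians were not compared for the continuous split, whose slope has another unit.

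Among library measures, the cumulus marker sum passed over all splits without treatment (1880 CPM) and at 500 (1770) and 1000 CPM (2320), and was 1540 to 2290 on leaving out 1 embryo. Detected genes passed at 1000 CPM (-1230; thinned -1080) and ranged from -1210 to -706 (thinned -1050 to -561). Gene counts per ERCC count turned sign over all splits (0.411) and at 500 CPM (0.076; -0.92 to 0.989 leaving out 1), as did erythroid (0.445; -1.49 to 0.597) and theca markers (-1.55 to 0.613 leaving out 1). Depth and 5 high embryos limit what genes of few counts can show.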

Other observations

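Further genes were looked at after their values were seen and are given as values. Gm12789, a predicted gene beside B020004J07Rik on chromosome 4, was 186 ± 56.0 CPM in high (SD, n = 5) and 6.37 ± 6.20 CPM in low embryos (SD, n = 12; log2 fold change 5.71, edgeR adjusted p = 8.01e-06). Obox6, a homeobox gene, was 338 ± 132 and 48.4 ± 45.5 CPM (2.94 on the log2 scale; adjusted p = 0.00613, edgeR), with per-length means of 253 and 36.2 FPKM. Klf17, a Krüppel-like factor gene, was 847 ± 244 and 515 ± 84.7 CPM (0.87 on the log2 scale; adjusted p = 0.00508, edgeR), with per-length means of 236 and 143 FPKM. Calcoco2, of the 2-cell list and an autophagy receptor gene, was 182 ± 74.7 and 42.2 ± 18.5 CPM, and Trim43b 369 ± 156 and 69.4 ± 43.9 CPM, with all 5 high embryos above all 12 low ones for both. By contrast Trim75, on the same list, was 182 ± 56.3 and 265 ± 57.2 CPM and did not pass (edgeR adjusted p = 0.234).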
